A study of Homo sapiens with 6 samples.

Results

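The genes described here are the enzymes of cholesterol synthesis, the regulators of the SREBP transcription factors and the genes of sterol uptake, movement and storage. The 31 members were chosen by name, with earlier results of these data known, and all 31 were found among the 57500 genes of the deposited tables. RNA was sequenced from 22Rv1, a long-used line of human prostate carcinoma cells, with 3 libraries in each of 2 groups. The parental group carries the labels control and wild type. The liver-derived group is named for cells recovered from a metastasis in the liver. The study's design speaks of 3 conditions but names 2, and the labels give 2. Both groups were labelled as cells grown in RPMI-1640 with fetal bovine serum. The labels name no treatment, no host and no number of derivations, so the spread between derivations was not measured. The libraries are called biological replicates without naming separate cultures, and p-values measure the spread between these libraries only.

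Cells build cholesterol from acetyl-CoA through mevalonate and the isoprenoids farnesyl and geranylgeranyl diphosphate, and squalene synthase commits farnesyl diphosphate to sterols. When sterols in the endoplasmic reticulum are low, SCAP carries the SREBP proteins to the Golgi for cleavage, and the released factors switch on the synthesis and uptake genes; INSIG proteins hold SCAP back when sterols are plentiful. Prostate cancer cells use cholesterol for membranes and as the precursor of steroids.

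SREBP proteins bind sterol regulatory elements and work with NF-Y, which binds CCAAT boxes, so the promoters of members are the sequences that bear on whether these genes share control elements. Of the members, 27 had a promoter in the RefSeq table (GRCh38.p14). ACAT2, FDFT1, SCARB1 and SQLE had none there and were not searched. Within 250 bases upstream of a start, on both strands, CCAAT was found for 21 of 27 members (77.8%) and for 37% of 27305 genes. The core TCACNCCAC was found for 1 of 27 (3.7%) and for 1.09% of genes. SREBF2 was the only member of these 27 with an exact match to this core in a searched window. That core (133 to 125 bases before the start) and the CCAAT match (106 to 102) did not overlap. Variants of the core and sites outside these windows were not searched. The 5 windows shown were picked after their values were seen. MSMO1 and MYLIP rose and MVD and STARD4 fell, all with at least 2 CCAAT matches, and SREBF2 holds matches of both motifs. Each is shown 5′ to 3′ on the gene's strand up to the RefSeq start or to the first base that the count files annotate as exon, whichever comes first, and capitals mark the matches, with ATTGG being CCAAT on the other strand. They lie at chr4:165327419-165327622 (MSMO1, plus strand), chr6:16128836-16129085 (MYLIP, plus), chr16:88663162-88663341 (MVD, minus), chr5:111512591-111512785 (STARD4, minus) and chr22:41832855-41833078 (SREBF2, plus).
MSMO1: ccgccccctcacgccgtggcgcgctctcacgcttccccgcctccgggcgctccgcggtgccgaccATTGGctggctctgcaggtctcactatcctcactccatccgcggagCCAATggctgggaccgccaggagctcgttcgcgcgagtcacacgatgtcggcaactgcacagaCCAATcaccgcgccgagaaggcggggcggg
MYLIP: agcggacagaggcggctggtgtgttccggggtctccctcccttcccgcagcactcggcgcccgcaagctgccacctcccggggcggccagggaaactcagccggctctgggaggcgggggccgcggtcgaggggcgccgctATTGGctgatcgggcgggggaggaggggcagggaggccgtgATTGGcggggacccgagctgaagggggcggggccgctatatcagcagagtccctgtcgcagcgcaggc
MVD: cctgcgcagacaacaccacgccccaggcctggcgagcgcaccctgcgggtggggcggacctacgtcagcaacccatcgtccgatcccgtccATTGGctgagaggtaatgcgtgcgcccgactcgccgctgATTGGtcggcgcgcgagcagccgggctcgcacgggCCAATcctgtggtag
STARD4: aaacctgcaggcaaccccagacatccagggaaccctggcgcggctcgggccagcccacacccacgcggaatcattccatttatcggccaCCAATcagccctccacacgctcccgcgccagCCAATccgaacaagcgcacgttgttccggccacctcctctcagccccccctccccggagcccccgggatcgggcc
SREBF2: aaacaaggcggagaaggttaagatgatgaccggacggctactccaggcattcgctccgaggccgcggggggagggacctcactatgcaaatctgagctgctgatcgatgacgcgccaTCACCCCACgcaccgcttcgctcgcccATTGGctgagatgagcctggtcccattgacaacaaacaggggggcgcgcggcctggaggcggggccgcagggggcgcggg
CCAAT was present for 4 of 6 members called higher, 5 of 8 called lower and 12 of 13 not called. Genes with this box therefore stood in all 3 classes. PMVK and SREBF1, the members with the largest falls (log2 fold changes of -0.77 and -0.74), had no match of either motif in the window searched for each. Any other starts of these genes were not searched. NPC2 (-0.67) had CCAAT matches but is not shown. The sequences are a description of letters in these windows and show no binding.

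All 31 members passed the filter on low counts. At a Benjamini-Hochberg adjusted p under 0.05 (edgeR quasi-likelihood test over 19255 genes), 7 members were higher in the liver-derived cells, 9 were lower and 15 did not pass. That is 51.6% called, where 38.8% of all genes tested were called. The split was 22.6% higher against 17.5% of all genes, and 29% lower against 21.3%. In RNA from whole cultures, fewer cells of a type and less RNA per cell cannot be told apart. The changes were mostly small: 2 members (6.45%) changed by at least 2-fold, against 13.8% of all genes, and the median size of the log2 fold change was 0.237 in members and 0.293 in all genes. The median signed change was -0.06 in members and -0.0075 in all genes. Levels are given as CPM (counts relative to library size, after TMM scaling) and fold changes as the fitted log2 of liver-derived over parental. NPC1L1 passed the filter (a threshold near 0.207 CPM in 3 libraries) through its level in the liver-derived group, and 6 of the other 30 members were higher. Members of a single pathway moved both ways, so no common direction of the pathway was seen.

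One library touches most of these results. The counts of parental replicate 2 differed from those of parental replicates 1 and 3 by a chi-square of 55.7 and 62.7 per degree of freedom, whereas all other pairs within a group gave 2.26 to 3.15. Among members it was the highest parental library for 17, the lowest for 12 and in between for 2. Its deviation went with the GC content of the transcript. Over the 31 members, the log2 ratio of replicate 2 to the mean of replicates 1 and 3 correlated with GC content at r = 0.886 (members share these libraries; the value over 19145 genes was 0.589). Replicate 2 was above the other parental libraries for 15 of 16 members with a GC content of at least 50%, and below them for 12 of 15 members under 50%. The extremes were STARD4 at -0.84 with 34.2% GC and, among well expressed members, PMVK at 0.40 with 59.5% GC. Without this library 28 members were called (90.3%, against 59.8% of all genes), 13 higher (28.8% of all genes) and 15 lower (31%), and all 16 members called with 6 libraries were among them in the same direction. With a correction for GC content in each library, added after the data were seen, 26 members were called (83.9%, against 58.4% of all genes), 14 higher (35.2% of all genes) and 12 lower (23.2%). That correction moved the median change of all genes to 0.082, from -0.008. Leaving out 1 liver-derived library gave 5 members higher and 4 lower each time, beside 28.4%, 30.0% and 29% of all genes called without replicate 1, 2 and 3 (12.3%, 13.4% and 12.5% higher, 16.0%, 16.6% and 16.5% lower). Values without parental replicate 2 stand beside those of each member. Among the planned fits without 1 library, this one was singled out after the counts of replicate 2 were seen. Its parental group is replicates 1 and 3 alone, so its p-values rest on the small spread between those 2 libraries and within the liver-derived group.

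**Figure D1:**
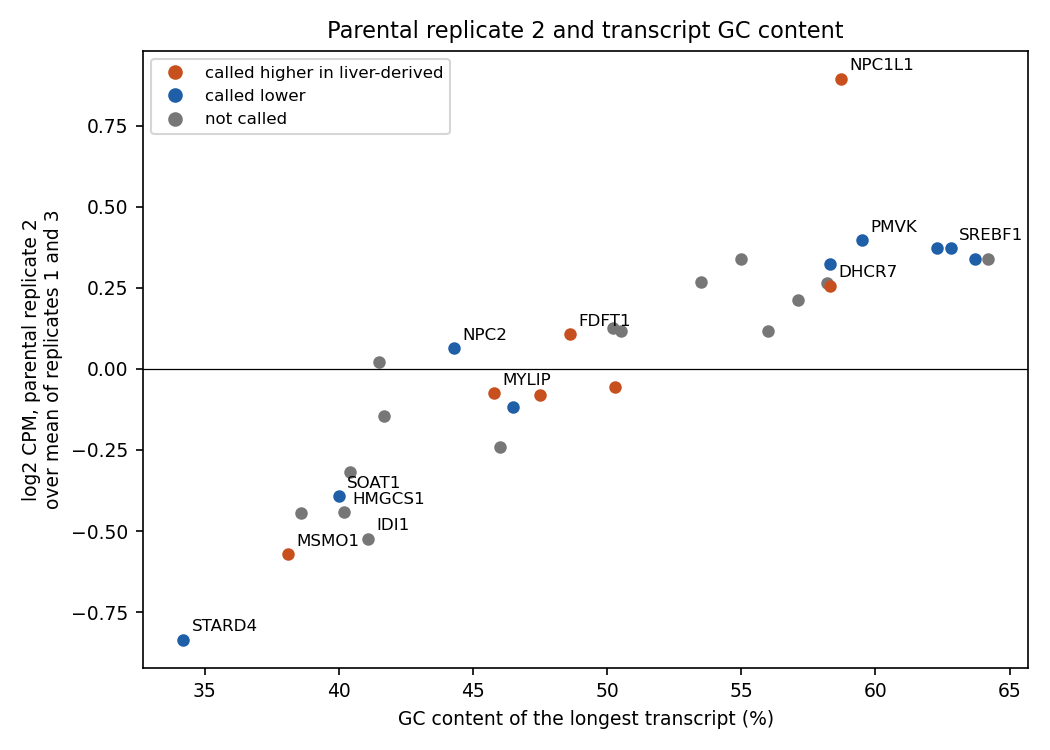
Each point is a member, with the GC content of its longest transcript on the x axis (percent) and the log2 ratio of CPM in parental replicate 2 to the mean of parental replicates 1 and 3 on the y axis; colours give the call with all 6 libraries. The points climb from STARD4 (34.2% GC, -0.84) to the GC-rich members near 0.34 to 0.40, with NPC1L1, a gene of few reads, above the rest.

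Markers of the labelled cell type were present: the 8 prostate epithelial genes examined, among them HOXB13, KRT8 and KRT18, were all detected, with a summed level of 3120 to 3230 TPM (a scale that also divides by gene length) in the parental and 2530 to 2570 TPM in the liver-derived libraries (2 higher, 5 lower). Of 7 hepatocyte markers, 4 passed the filter, 2 of them higher and 1 lower. Their summed level was 44.2 to 58.8 TPM in parental and 69.1 to 72.2 TPM in liver-derived libraries, nearly all of it ALB. TTR, SERPINA1 and CYP3A4 did not pass the filter, and CYP3A4 was at 0 in 3 of 6 libraries. Of 9 stromal, endothelial and leukocyte markers, 7 passed the filter and 2 were lower, with sums of 10.5 to 10.9 and 8.21 to 9.34 TPM. The part of these markers in the results was not tested.

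The 8 enzymes that lead to farnesyl and geranylgeranyl diphosphate gave 2 falls and no rise with 6 libraries. Of all genes tested, 21.3% were called lower and 17.5% higher. The groups of members by role hold few genes and were not tested against these shares. PMVK, the kinase that forms diphosphomevalonate (ENSG00000163344; chromosome 1, 154924734 to 154936991, GRCh38, minus strand), had levels of 126, 165 and 124 CPM in the parental libraries, in order of replicate, against 83.2, 80.3 and 80.8 CPM in those of the liver-derived cells. All 3 liver-derived libraries were below all parental ones, and parental replicate 2 was the highest. The log2 fold change was -0.77 (SE 0.11, edgeR adjusted p = 6.4e-04), or 1.7-fold lower, and -0.62 without parental replicate 2. MVD, the decarboxylase of the next step that yields isopentenyl diphosphate (chromosome 16, 88651935 to 88663161), stood at 98.8, 123 and 96.1 CPM and at 81.4, 77.9 and 75.7 CPM. The groups did not overlap, with a log2 fold change of -0.44 (SE 0.10, edgeR adjusted p = 0.00854) and -0.32 without parental replicate 2. With the GC correction, which was added after the data were seen, the change of MVD was -0.13 (adjusted p = 0.00797).

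Levels of the other 6 enzymes of this stretch did not pass with 6 libraries. ACAT2, the cytosolic thiolase that joins acetyl-CoA units, was measured at 96.2, 103 and 92.6 CPM in parental and 101, 108 and 103 CPM in liver-derived libraries. The groups overlapped, with a log2 fold change of 0.10 (95% interval -0.07 to 0.26), and 0.13 (edgeR adjusted p = 2.28e-04) without parental replicate 2 and 0.16 (adjusted p = 0.00212) with the GC correction. Its exons share 1850 bases with SOD2 and 397 with TCP1 on the opposite strand, both with more reads than ACAT2, so its count is uncertain. HMGCS1, which makes hydroxymethylglutaryl-CoA, stood at 193, 142 and 194 CPM in parental and 169, 177 and 170 CPM in liver-derived libraries. Its liver-derived values lay between parental replicate 2 and the other parental libraries, and its change was -0.04 (interval -0.30 to 0.22). Without parental replicate 2 it was -0.17 (adjusted p = 1.35e-07), and without parental replicate 1 or 3 it was 0.03.

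IDI1, the isopentenyl diphosphate isomerase, had the same pattern: 133, 93.3 and 135 CPM in parental libraries and 125, 122 and 123 CPM in liver-derived libraries. Its log2 fold change was 0.03 (interval -0.26 to 0.33) with all libraries and -0.12 (adjusted p = 1.04e-04) without parental replicate 2. GGPS1, the geranylgeranyl diphosphate synthase, stood at 120, 97.3 and 123 CPM and at 105, 104 and 106 CPM, again with parental replicate 2 as the only parental library below the liver-derived ones. Its change was -0.11 (interval -0.32 to 0.11), and -0.21 (adjusted p = 2.96e-08) without that library; GGPS1 overlaps ARID4B by 138 bases on the opposite strand. FDPS, which makes farnesyl diphosphate, stood at 301, 327 and 301 CPM and at 320, 317 and 319 CPM (0.04, interval -0.10 to 0.19), and passed at 0.08 without parental replicate 2 (adjusted p = 0.00109) and at 0.19 with the GC correction (adjusted p = 1.83e-04). MVK, the mevalonate kinase, was at 51.7, 61.9 and 51.3 CPM and at 52.9, 52.2 and 53.2 CPM and did not pass with or without parental replicate 2 (-0.06, interval -0.26 to 0.14, and 0.04), but passed at 0.14 with the GC correction (edgeR adjusted p = 0.00641); it overlaps MMAB on the opposite strand.

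The sterol branch, which starts from farnesyl diphosphate, held 3 rises and 2 falls among 11 enzymes. The shares of all genes tested were 17.5% higher and 21.3% lower. MSMO1, the methylsterol monooxygenase that removes methyl groups after lanosterol (ENSG00000052802; chromosome 4, 165327623 to 165343160, GRCh38, plus strand), stood at 102, 68.9 and 102 CPM in parental and 172, 177 and 172 CPM in liver-derived libraries. Every liver-derived library lay well above every parental one. The log2 fold change was 0.93 (SE 0.14, edgeR adjusted p = 8.09e-04), or 1.9-fold higher, and 0.76 (SE 0.03) without parental replicate 2, which was the lowest library.

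FDFT1, the squalene synthase (ENSG00000079459; chromosome 8, 11795573 to 11839309, plus strand), stood at 458, 494 and 459 CPM in parental and 650, 641 and 621 CPM in liver-derived libraries. The groups were far apart for a gene of this level, with a log2 fold change of 0.44 (SE 0.06, edgeR adjusted p = 5.97e-04), or 1.36-fold higher, and 0.47 without parental replicate 2. DHCR7, the reductase of the last step of its route to cholesterol (chromosome 11, 71428193 to 71452868), stood at 179, 210 and 173 CPM and at 249, 236 and 245 CPM. It was 1.3-fold higher (0.38, SE 0.09, edgeR adjusted p = 0.00745), with 0.47 without parental replicate 2 and 0.57 with the GC correction. MSMO1 has a GC-poor transcript (38.1% GC) and DHCR7 a GC-rich one (58.3%), and both were called higher with and without parental replicate 2.

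LSS and SQLE, which act back to back on squalene and its epoxide, were lower. LSS, the lanosterol synthase (chromosome 21, 46188141 to 46228824), stood at 127, 157 and 125 CPM and at 108, 107 and 106 CPM. The groups did not overlap (-0.35, SE 0.10, edgeR adjusted p = 0.0190; -0.23 without parental replicate 2 and -0.15 with the GC correction). SQLE, the squalene epoxidase, stood at 66.4, 62.2 and 68.5 CPM and at 55.4, 56.6 and 57.2 CPM (-0.22, SE 0.07, edgeR adjusted p = 0.0344; -0.26 without parental replicate 2). Both are small changes near the threshold. The call on LSS was lost without any 1 of the liver-derived libraries (adjusted p = 0.068, 0.0771 and 0.0775), and that on SQLE without any 1 library other than parental replicate 2 (adjusted p from 0.0918 to 0.149).

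The other 6 sterol enzymes did not pass with 6 libraries. TM7SF2, a sterol reductase, stood at 120, 153 and 121 CPM and at 160, 148 and 156 CPM (0.24, 95% interval 0.01 to 0.47, edgeR adjusted p = 0.0957). Only parental replicate 2 reached the liver-derived range, and the change was 0.36 (adjusted p = 5.68e-13) without it and 0.55 (adjusted p = 7.88e-09) with the GC correction. EBP, a sterol isomerase, stood at 130, 153 and 125 CPM and at 151, 148 and 155 CPM (0.16, interval -0.04 to 0.35), and 0.25 (adjusted p = 3.95e-10) without that library and 0.27 (adjusted p = 5.32e-05) with the GC correction. HSD17B7, a ketosteroid reductase of the demethylation steps, stood at 21, 19.3 and 21.7 CPM and at 17.9, 19 and 17.9 CPM (-0.18, interval -0.37 to 0.0017; -0.24, adjusted p = 4.4e-04, without parental replicate 2). Its pseudogene HSD17B7P2 held 11.4% as many reads, and how reads were divided between them is not known.

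CYP51A1, the lanosterol demethylase, stood at 71.8, 71.7 and 69.7 CPM and at 65.7, 66 and 67 CPM. Its groups did not overlap, as for 58.1% of members and 54.0% of all genes tested, and the change was -0.10 (interval -0.25 to 0.05) with 6 libraries and -0.10 (edgeR adjusted p = 0.0107) without parental replicate 2. The exons of CYP51A1 share 3211 bases (78.8% of its length) with LRRD1 on the same strand, which held 0.14% as many reads. They also share 410 bases with CYP51A1-AS1 on the opposite strand. How reads in shared bases were counted is not known, so the count of CYP51A1 is uncertain. NSDHL, a dehydrogenase of the same demethylation steps, ranged from 35.1 to 38.3 CPM and from 34.5 to 34.8 CPM (-0.07, interval -0.23 to 0.10; -0.03 without parental replicate 2). SC5D, the sterol desaturase, stood at 39.9, 29.2 and 39.7 CPM and at 40.7, 39.9 and 37 CPM (0.11, interval -0.16 to 0.39; -0.02 without parental replicate 2). NSDHL and SC5D did not pass with or without parental replicate 2, and with the GC correction SC5D passed (0.13, edgeR adjusted p = 0.0289) and NSDHL did not (0.0012, adjusted p = 0.984). HSD17B7 also passed with that correction (-0.18, edgeR adjusted p = 0.0123), as did GGPS1 (-0.10, adjusted p = 0.0185) and INSIG1 (-0.13, adjusted p = 0.0174).

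**Figure D2:**
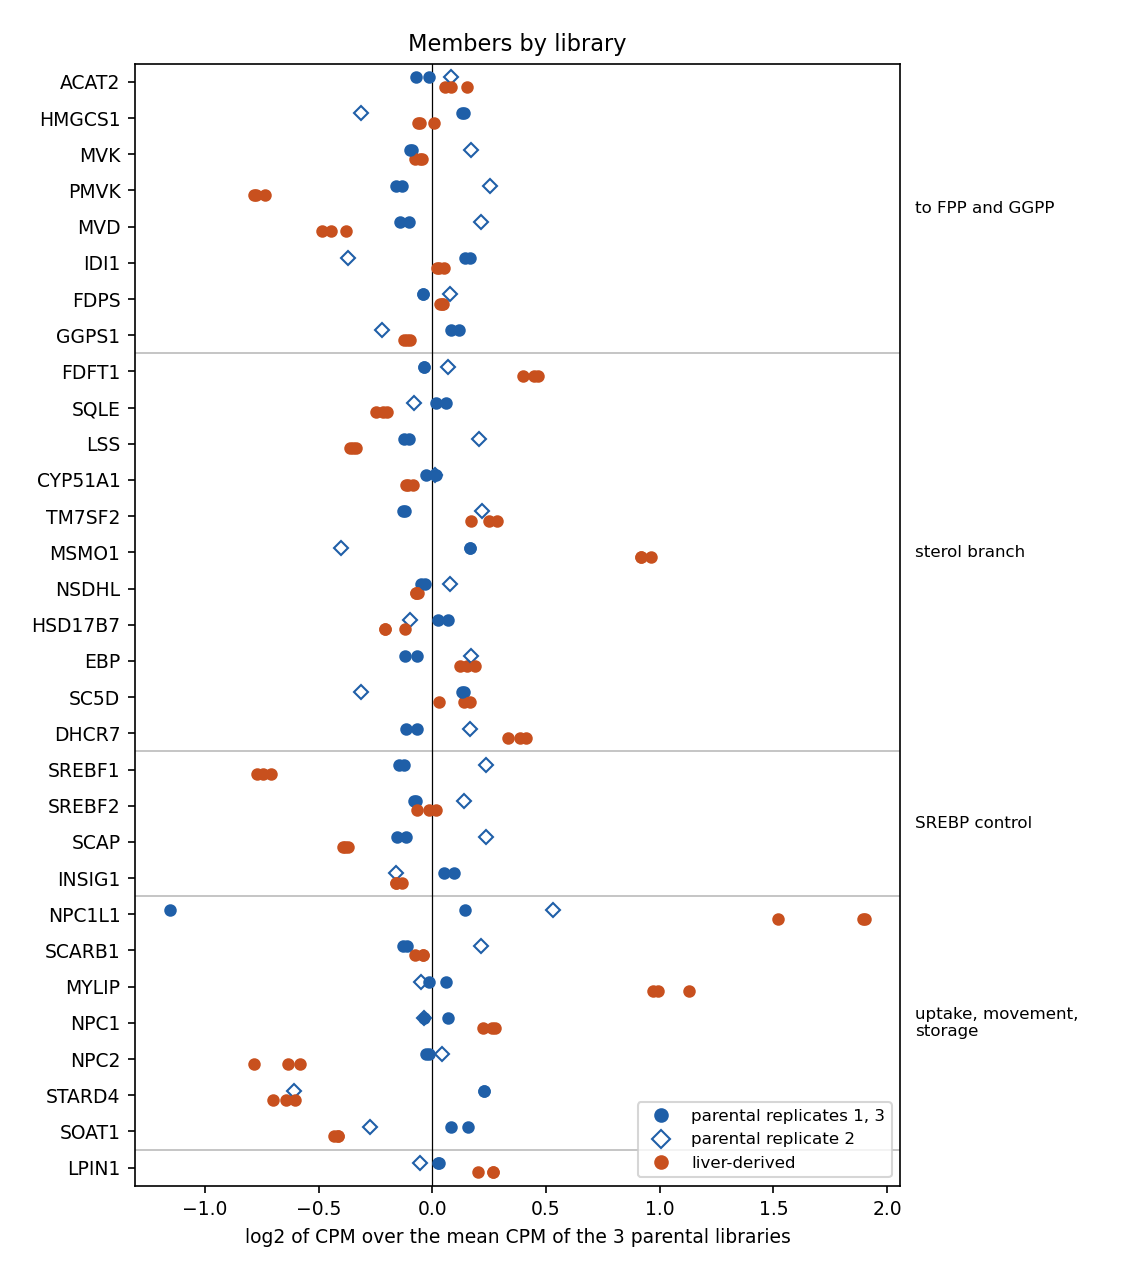
Each row is a member, grouped by role, and each point a library: the x axis is the log2 of its CPM over the mean CPM of the 3 parental libraries. Liver-derived points form tight groups, as for MSMO1 at 172 to 177 CPM, while the open diamonds of parental replicate 2 lie apart from the other parental points for most members.

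Compared per length, as TPM, the 2 stretches of the pathway shifted against each other. The summed level of the 8 enzymes up to the isoprenoid diphosphates was 1256, 1230 and 1260 TPM in parental libraries and 1050, 1045 and 1031 TPM in liver-derived libraries. The summed level of the 11 sterol enzymes was 1239, 1239 and 1238 TPM and then 1502, 1477 and 1470 TPM. In both sums parental replicate 2 lay nearer to the other parental libraries than to any liver-derived one. These sums rest on few genes: without PMVK the earlier stretch summed to 788 to 900 TPM in parental and 811 to 824 TPM in liver-derived libraries, which overlap, and without FDFT1 and MSMO1 the sterol branch summed to 778 to 831 and 828 to 853 TPM. The ratio of FDFT1 to FDPS, the enzymes on either side of farnesyl diphosphate, was 1.09, 1.08 and 1.09 in parental and 1.45, 1.44 and 1.39 in liver-derived libraries, a pair chosen after its values were seen. FDFT1 became the member with the highest TPM (326 ± 1.85 and 430 ± 11.6, SD, n = 3 each), in place of PMVK (389 ± 46.4 and 223 ± 4.57).

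SREBF1 and SCAP fell among the 4 genes of SREBP control, where 21.3% of all genes tested were called lower. SREBF1, which encodes the SREBP isoforms tied mostly to fatty acid genes (ENSG00000072310; chromosome 17, 17810399 to 17837002, GRCh38, minus strand), stood at 286, 368 and 282 CPM in parental and 191, 183 and 186 CPM in liver-derived libraries. The lowest parental library was far above the highest liver-derived one. The log2 fold change was -0.74 (SE 0.10, edgeR adjusted p = 5.53e-04), or 1.67-fold lower, and it was -0.60 without parental replicate 2 and -0.45 with the GC correction (adjusted p = 4.06e-08). SREBF1 overlaps RAI1 by 556 bases on the opposite strand, and RAI1 held 33.4% as many reads as SREBF1.

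SREBF2, which encodes the SREBP isoform tied mostly to cholesterol synthesis and uptake (chromosome 22, 41833079 to 41907308), stood at 364, 423 and 366 CPM and at 389, 380 and 367 CPM. The groups overlapped, and the change was -0.02 (95% interval -0.20 to 0.15, edgeR adjusted p = 0.853). Without parental replicate 2 it was 0.05 (interval 0.0062 to 0.10, adjusted p = 0.0461), and with the GC correction 0.15 (adjusted p = 0.00129), both of the opposite sign. The TPM ratio of SREBF1 to SREBF2, a pair of GC-rich transcripts chosen after its values were seen, was 0.740, 0.819 and 0.727 in parental and 0.463, 0.454 and 0.478 in liver-derived libraries. The balance between the paralogs was thus lower in each liver-derived library than in any parental library.

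SCAP, the escort protein (chromosome 3, 47413694 to 47477126), stood at 148, 189 and 144 CPM and at 124, 123 and 122 CPM. The groups did not overlap, and the change was -0.38 (SE 0.11, edgeR adjusted p = 0.0193). It was -0.24 without parental replicate 2 and -0.10 with the GC correction, and the call was lost without any 1 liver-derived library (adjusted p = 0.0682, 0.0763 and 0.0715). INSIG1, the sterol-responsive anchor of SCAP and itself an SREBP target, stood at 128, 107 and 124 CPM and at 109, 107 and 107 CPM. Its change of -0.15 (interval -0.34 to 0.03, edgeR adjusted p = 0.176) did not pass, and it was -0.23 (adjusted p = 3.5e-09) without parental replicate 2, the parental library nearest to the liver-derived ones.

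**Figure D3:**
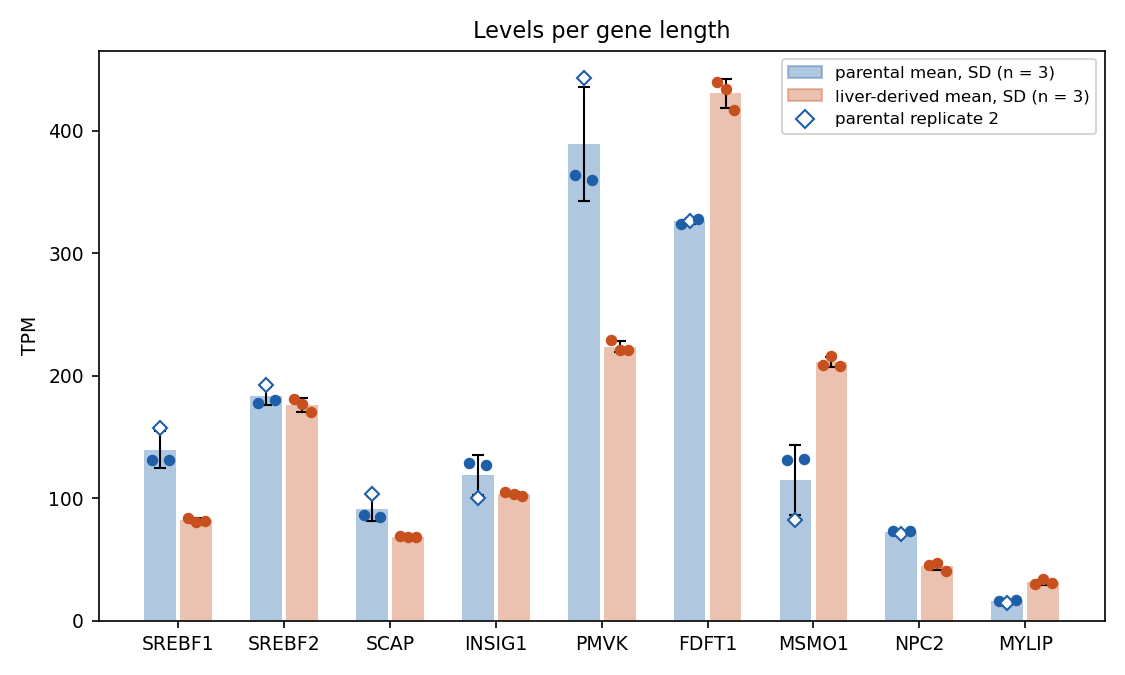
Levels of 9 members in TPM, a scale per gene length that allows genes to be compared: bars are means of 3 libraries, lines are SD and points are libraries, with parental replicate 2 as an open diamond. SREBF1 fell from 140 to 81.8 TPM while SREBF2 stood at 183 and 176 TPM, and FDFT1 and MSMO1 were higher and PMVK lower in the liver-derived libraries.

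Genes of sterol uptake, movement and storage gave 3 rises and 3 falls among 7, beside 17.5% higher and 21.3% lower of all genes tested. The rises include NPC1L1, which passed the filter through its level in the liver-derived group. MYLIP, a ubiquitin ligase that marks lipoprotein receptors for degradation and is a known target of the oxysterol-sensing LXR receptors (ENSG00000007944; chromosome 6, 16129125 to 16148248, GRCh38, plus strand), stood at 13.1, 12.8 and 13.8 CPM in parental and 25.9, 28.9 and 26.3 CPM in liver-derived libraries. It rose 2.04-fold (log2 fold change 1.03, SE 0.08, edgeR adjusted p = 1.41e-05), with 0.995 without parental replicate 2, which stood close to the other parental libraries here. NPC1L1, a sterol transporter of the intestine and liver, rested on few reads: 9, 27 and 24 raw counts in parental and 80, 33 and 75 in liver-derived libraries. That gave 0.185, 0.595 and 0.455 CPM and 1.53, 1.18 and 1.54 CPM, and a log2 fold change of 1.80 (95% interval 1.05 to 2.55, edgeR adjusted p = 0.00242), or 2.14 without parental replicate 2. SCARB1, the receptor for high-density lipoprotein, stood at 159, 202 and 161 CPM and at 169, 169 and 165 CPM (-0.06, interval -0.28 to 0.17; 0.07, adjusted p = 0.0200, without parental replicate 2).

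NPC1 and NPC2, which hand cholesterol out of lysosomes together, moved in opposite directions. NPC2, the soluble carrier (chromosome 14, 74476192 to 74494177), stood at 54.4, 56.6 and 53.9 CPM and at 35.4, 36.7 and 31.9 CPM. It was 1.59-fold lower (-0.67, SE 0.08, edgeR adjusted p = 1.68e-04; -0.65 without parental replicate 2). NPC1, the membrane partner, stood at 18.3, 18.3 and 19.7 CPM and at 21.9, 22.5 and 22.7 CPM (0.25, SE 0.08, edgeR adjusted p = 0.0262; 0.23 without parental replicate 2). NPC1 shares 604 bases with RMC1 on the opposite strand, which held more reads, and its call was lost without parental replicate 1 or any 1 liver-derived library (adjusted p from 0.0806 to 0.107). Per length, NPC2 remained the more abundant, at 72.2 ± 1.27 and 44.3 ± 3.33 TPM beside 6.71 ± 0.517 and 7.77 ± 0.122 TPM for NPC1 (SD, n = 3 each).

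STARD4 and SOAT1, a cytosolic sterol carrier and the enzyme that esterifies cholesterol for storage, were lower. STARD4 (chromosome 5, 111496033 to 111512590) stood at 48.9, 27.4 and 48.9 CPM and at 26.7, 27.5 and 25.7 CPM. Parental replicate 2 lay inside the liver-derived range, so the groups overlapped. The change was -0.65 (SE 0.20, edgeR adjusted p = 0.0280) and became -0.88 (SE 0.04) without that library, while the call was lost without any 1 of the other libraries (adjusted p from 0.0758 to 0.0897). SOAT1 (chromosome 1, 179293714 to 179358680) stood at 74.9, 58.6 and 79 CPM and at 53.2, 53.2 and 52.5 CPM (-0.42, SE 0.11, edgeR adjusted p = 0.0144; -0.54 without parental replicate 2). Its call was lost without any 1 liver-derived library (adjusted p = 0.0552, 0.0603 and 0.0585).

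LPIN1, a phosphatidate phosphatase of glycerolipid synthesis whose product also acts on SREBP in the nucleus, stood at 54.2, 51.3 and 54.3 CPM and at 64, 64.1 and 61.2 CPM. The groups did not overlap, and the gene was 1.18-fold higher (0.24, SE 0.07, edgeR adjusted p = 0.0203; 0.21 without parental replicate 2). The call was lost without parental replicate 1 or any 1 liver-derived library (adjusted p from 0.0541 to 0.0984).

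**Figure D4:**
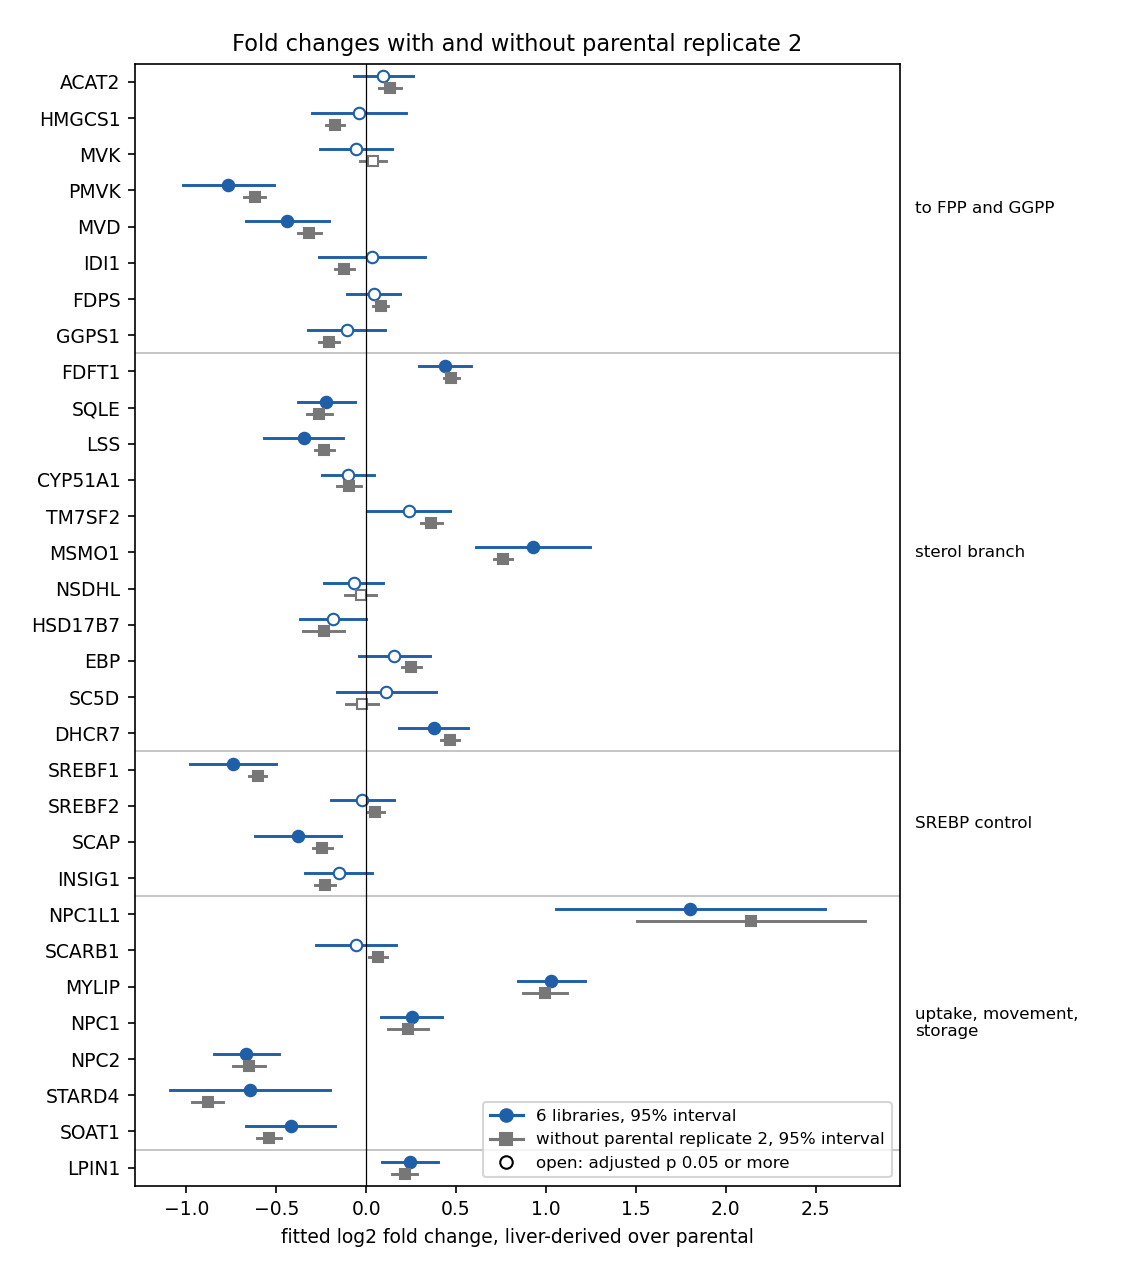
Fitted log2 fold change of each member, liver-derived over parental (x axis), with 95% intervals: circles use all 6 libraries and squares leave out parental replicate 2, and filled symbols have an adjusted p under 0.05. Intervals narrow without that library (MSMO1 from 0.61 to 1.25 with it, 0.71 to 0.81 without it), and 12 members pass only then.

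A list of 51 other genes around the pathway was examined in the same fit, of which 47 passed the filter. Of those, 13 were higher, 9 lower and 25 did not pass. Among all genes tested, 17.5% were higher and 21.3% lower. The smaller lists within it hold few genes and were not tested against these shares. Among 8 genes of SREBP processing and sterol-regulated degradation, 3 rose and none fell (5 and 0 without parental replicate 2), among them ERLIN1 (0.55, from 57.1 to 83.6 CPM), which acts in the degradation of sterol-regulated proteins of the endoplasmic reticulum. The proteases that cleave SREBP, MBTPS1 (0.16, edgeR adjusted p = 0.101) and MBTPS2 (0.05, adjusted p = 0.734), did not pass with 6 libraries. The groups of MBTPS1 did not overlap, and it was called higher without parental replicate 2 (0.20, edgeR adjusted p = 2.69e-08) and with the GC correction (0.23, adjusted p = 3.23e-05), whereas MBTPS2 passed in neither (-0.06 and 0.09). Among 7 tested genes of acetyl-CoA supply and paralogs of members, 3 rose and none fell (5 and 1 without parental replicate 2), among them LPIN2, a paralog of LPIN1, from 18.8 to 36.9 CPM (0.97), and ACAT1, the mitochondrial thiolase (0.22, edgeR adjusted p = 0.0359).

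Genes of oxysterol sensing and efflux included 4 falls and no rise among 6 tested (2 falls and 1 rise without parental replicate 2). ABCG1, a sterol exporter and, like MYLIP, a known LXR target, fell from 2.84, 3.48 and 3.07 CPM to 0.594, 0.286 and 0.391 CPM (-2.81, edgeR adjusted p = 1.56e-05), whereas the exporter gene ABCA1 stood at 1.06 to 1.18 and 0.966 to 1.38 CPM (0.0031, adjusted p = 0.992). NR1H3, the gene of LXR alpha, fell from 22.4 to 12.5 CPM (-0.84, adjusted p = 2.51e-04). NR1H2, the gene of LXR beta, had the higher level and did not pass, at 93.1 and 93.4 CPM (0.0044, edgeR adjusted p = 0.974). NR1H2 was the rise without parental replicate 2 (0.10, adjusted p = 0.00302) and was also called higher with the GC correction (0.25, adjusted p = 2.25e-05). CYP27A1 and CYP46A1, which make up the rest of these falls, lay under 0.207 CPM in every liver-derived library and passed the filter through the parental group, where they were higher. Their calls were lost without parental replicate 2 (adjusted p = 0.0912 and 0.104). Among 5 lipoprotein receptor genes and adaptors, 2 rose and 2 fell (2 and 2 also without parental replicate 2), the falls being LRP8 (-0.97, from 25.8 to 13.2 CPM) and LRP1 (-0.95, from 12.1 to 6.27 CPM).

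Of 9 tested genes of sterol transfer and ester hydrolysis, 3 rose and 2 fell (4 and 2 without parental replicate 2), the falls being STARD3NL, a tether of late endosomes (-0.81, from 118 to 67 CPM), and GRAMD1A, a sterol transfer protein (-0.75, from 23.4 to 13.9 CPM). Of 12 genes that use isoprenoids for other products, 2 rose and 1 fell with 6 libraries, and 5 rose and 5 fell without parental replicate 2. COQ2, of ubiquinone synthesis, fell from 25.2 to 15.4 CPM (-0.71), and ICMT, a methyltransferase of prenylated proteins, rose from 226 to 288 CPM (0.35). Without parental replicate 2 the 51 genes gave 22 higher and 12 lower, where 28.8% of all genes were higher and 31% lower. ERLIN1, LPIN2, ACAT1, ABCG1, NR1H3, LRP8, LRP1, STARD3NL, GRAMD1A, COQ2 and ICMT were called in the same direction without that library.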

How the data were processed

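Total RNA of 6 libraries was sequenced. The submitters' processing notes name Trimmomatic 0.36, STAR 2.5.2b, the GRCh38 genome and featureCounts (Subread 1.5.2); no counting option, strand setting or annotation release was found in the labels or headers used here. Per the file headers, the authors deposited a raw count for every gene in 1 file per library. They also deposited a TPM table, from which trailing lines without a gene (391182) were left out. Dividing the counts by gene length and rescaling returned each deposited TPM to within 1e-04 in relative terms. Symbols came from that table and a table of gene identifiers (98.1% matched).

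The tests used edgeR 4.0.16 in R 4.3.3: filterByExpr, TMM factors, a robust quasi-likelihood fit with the group as its only term, and Benjamini-Hochberg adjustment over all 19255 genes tested, at a threshold of 0.05. Library totals ran from 28395265 to 53275252 counts. Groups came from the sample titles. The members and gene lists were chosen with earlier results of these data known. All members were named, and from each other list no more than 2 called genes, those that changed most with a mean of 1 CPM or above in either group. MBTPS1, MBTPS2, ACAT1, ABCA1, NR1H2, CYP27A1 and CYP46A1 were named after their values were seen. Some genes that this rule selects are not reported here. GC content was that of the longest GENCODE 29 transcript. Alternatives were other scaling factors, other filters, DESeq2 1.42.0, limma-voom (limma 3.58.1), each library left out, a replicate block and, added after the data were seen, a GC correction. The main edgeR fit, the replicate block, DESeq2 and limma-voom were also run on simulated counts. The GC correction and the other alternatives were not, and no simulated library was given a deviation that followed GC content. No pair of libraries within a group differed by less than sampling noise, so each counted as 1 replicate.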

Additional observations from a re-analysis of the deposited data

How the results depend on the processing

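With all 6 libraries 7476 genes were called, 5600 to 11870 over the fits that left out 1 library (11870 without parental replicate 2) and 11237 with the GC correction, which was chosen after the data were seen and gave 60.3% of its calls as higher against 45.1%. Members called higher numbered 7, and 14 with the GC correction (5 to 13 over the fits that left out 1 library); members called lower numbered 9 (4 to 15 over those fits, 4 without any 1 liver-derived library and 15 without parental replicate 2). The median log2 change of members went from -0.0552 to 0.0465 with the GC correction. Of the 16 called members, 9 kept their call in each of 15 alternatives (FDFT1, DHCR7, MSMO1, PMVK, MVD, SREBF1, NPC1L1, MYLIP and NPC2), and 7 lost it in at least 1, all of them without each liver-derived library; none changed direction. Members that were not called and changed direction were, with library size alone, IDI1 (-0.0253) and FDPS (-0.0097); with the GC correction, MVK (0.1365), NSDHL (0.0012), SREBF2 (0.1503) and SCARB1 (0.0852); and in fits without 1 library HMGCS1 (-0.175 to 0.032), MVK (-0.107 to 0.0361), IDI1 (-0.1221 to 0.1214), SC5D (-0.0225 to 0.1818), SREBF2 (-0.0633 to 0.0518) and SCARB1 (-0.1203 to 0.065). The cause was not tested. The replicate numbers did not pair the libraries: deviations of same-numbered libraries correlated at -0.008, 0.009 and 0.072. With the replicate block 7052 genes (36.6%), 5 members higher and 8 lower were called; SQLE (adjusted p = 0.0867), NPC1 (0.067) and LPIN1 (0.0621) missed the threshold. Levels under 1 CPM, as for NPC1L1 in the parental libraries, rest on few reads.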
